A study of Homo sapiens with 3 samples.

Results

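The summits described here are those of HA-TFE3 that lie within 2 Mb of a chromosome end in HK-2 cells, an established line from human kidney proximal tubule. TFE3 is a helix-loop-helix leucine zipper transcription factor known to bind E-box sequences of genes for lysosomes and autophagy. Doxycycline controls an HA-TFE3 gene in these cells, and their chromatin was precipitated through the HA tag (ChIP-seq) in 2 libraries, replicates 1 and 2, beside 1 input DNA library with no part in any comparison here. The protocol names 24 h of culture with or without 0.2 µg/ml of doxycycline, and the labels do not say which libraries had it. All 3 samples share the line and the inducible gene, and separate cultures are stated nowhere, so differences between the ChIP libraries may be only technical.

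A summit is the single base at which the authors placed a binding peak, with a score of unstated scale. Members were taken by position alone, as all summits under 2 Mb from either end of chromosomes 1 to 22 in hg19. The short-arm ends of chromosomes 13, 14, 15, 21 and 22 were left out, which leaves 39 ends and 78 Mb. Replicate 1 had 2789 such summits of 62287 on chromosomes 1 to 22 and X, and replicate 2 had 3253 of 72647. Summits of the 2 lists that were mutual nearest neighbours at most 100 bp apart are called shared. There were 2154 shared summits near ends, placed by their base in replicate 1, which is 4.54% of all 47396 on 2.57% of the length. The ends are named by chromosome and arm, p for short and q for long.

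Chromosome ends consist of telomere repeats, then of subtelomeric blocks that are known to be near-identical between several chromosomes, and then of ordinary sequence that is gene-rich on many arms and gene-poor on others. Genes of the TFE3 field are known to map to terminal bands, among them SQSTM1 (an autophagy receptor) in 5q35.3, CTSD (the lysosomal protease cathepsin D) in 11p15.5, ARSA (the lysosomal arylsulfatase A) in 22q13.33 and ASPSCR1 (a fusion partner of TFE3 in tumours) in 17q25.3. Neither genes nor sequence of hg19 were used here, so summits are given by band and base only. The band 22q13.33 held 69 shared summits in 1.90 Mb, all of them within 2 Mb of the end, and 17q25.3 held 291, of which 139 were that close. In 11p15.5 there were 77 within 2 Mb of 89, and in 5q35.3 there were 42 of 88. Per Mb of band, 22q13.33, 17q25.3, 11p15.5 and 5q35.3 held 36.2, 49.4, 31.8 and 20.4 shared summits. Over the terminal bands of all 39 ends the density ran from 2.38 in 11q25 to 63.6 in 19p13.3. No gene was placed, so the counts do not tell of binding at the genes named.

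The first comparison set the ends against the next 8 Mb of the same arms. Shared summits occurred at 27.6 per Mb within 2 Mb of an end (95% Poisson interval 26.5 to 28.8) and at 20.6 per Mb from 2 to 10 Mb (20.1 to 21.1), a ratio of 1.34. The average over chromosomes 1 to 22 and X was 15.6 per Mb. For all summits of a library the ratio was 1.33 in replicate 1 and 1.33 in replicate 2. The lists have most of their summits in common, so this likeness does not measure the spread between arms. By end, the ratio of shared densities ran from 0.203 at 3p to 6.38 at 5p. Of the 39 ends, 28 were denser than their own 2 to 10 Mb and 11 were less dense (two-sided exact sign test over ends, p = 0.00948). Adjusted over the 7 tests made here by the Benjamini-Hochberg method this p was 0.0663, which does not pass 0.05. For all summits of a library, replicate 1 had 26 denser ends and replicate 2 had 27. In both libraries 26 ends were denser and 12 less dense. Among those 12 were 10p and 22q, each with a ratio of 1.03 for shared summits. Their ratios in replicates 1 and 2 were 0.836 and 0.933 at 10p, and 0.992 and 0.959 at 22q. Both libraries enter at each end, so the test describes these arms and not further cultures.

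Giemsa staining differed between the zones. Unstained bands, known to be gene-rich, made up 91.7% of the length within 2 Mb and 55.5% from 2 to 10 Mb. Within unstained bands alone, on the 36 ends that have them in both zones, the densities were 28.7 and 23.97 shared summits per Mb, a ratio of 1.20 (two-sided exact sign test over ends, p = 0.132, adjusted 0.927).

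Along the 2 Mb the density was not even. It was 22.9 shared summits per Mb in the outermost 500 kb (95% Poisson interval 20.8 to 25.1), 31.8 from 0.5 to 1 Mb (29.4 to 34.5), 27.5 from 1 to 1.5 Mb (25.3 to 30.0) and 28.2 from 1.5 to 2 Mb (25.8 to 30.6). The next 500 kb, just outside the limit, had 20.9 (18.9 to 23.001). Relative to each library's own average over the genome, all summits stood at 1.45 ± 0.0011 (SD, n = 2) in the outermost 500 kb, at 1.998 ± 0.037 from 0.5 to 1 Mb, at 1.76 ± 0.035 from 1 to 1.5 Mb and at 1.76 ± 0.0011 from 1.5 to 2 Mb. These SDs cover only the difference between 2 lists that have most of their summits in common. They leave out counting error, and the Poisson intervals above are in proportion far wider. The bins past 2 Mb fluctuated without a steady trend, between 16.5 and 24.7 shared summits per Mb.

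**Figure D1:**
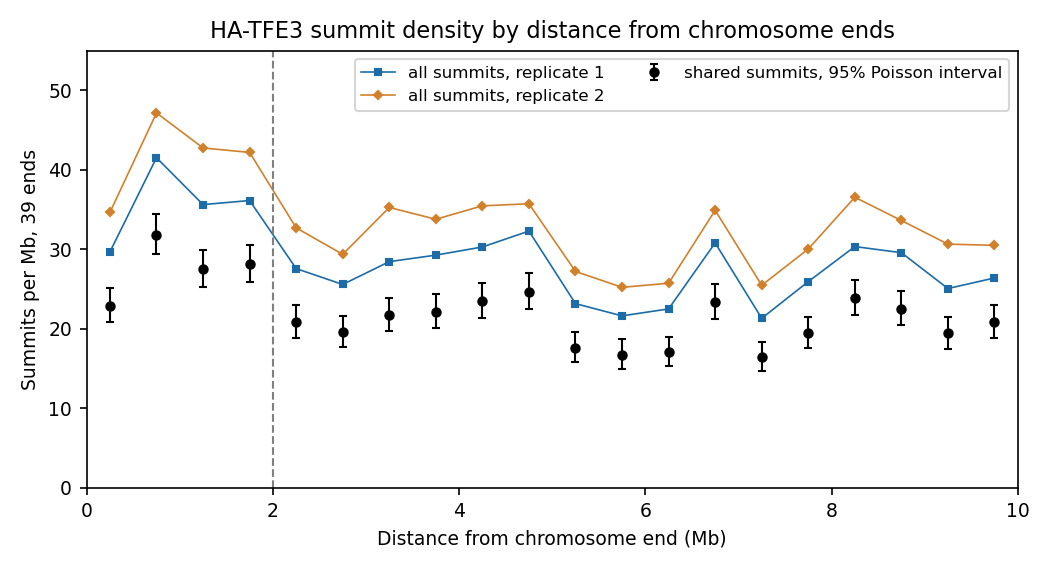
HA-TFE3 summits per Mb (y axis) against distance from the chromosome end in Mb (x axis), in bins of 500 kb over 39 ends. Black points are shared summits with 95% Poisson intervals, and coloured lines are all summits of each library. Both libraries peak from 0.5 to 1 Mb, where shared summits reach 31.8 per Mb, and drop past the dashed line at 2 Mb.

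The outermost 500 kb was not shown to be sparser than the stretch from 1.5 to 2 Mb. Its density was 0.814 times as high, but 17 ends had more shared summits in the outer bin, 18 had fewer and 4 had equal numbers (two-sided exact sign test over ends, p = 1). With lists cut to their 10000 highest scores the ratio was 0.674 (two-sided exact sign test over ends, p = 0.0294, adjusted 0.103). The sparse part lay furthest out: the last 100 kb held 48 shared summits, or 12.3 per Mb (9.08 to 16.3), against 25.6 per Mb (23.1 to 28.2) from 0.1 to 0.5 Mb. Without those 100 kb the ratio of outer to inner bin was 0.908. How much of the last 100 kb is sequenced in hg19 or can be mapped was not measured.

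The ends differed widely among themselves. The number of shared summits within 2 Mb ran from 4 to 139 with a median of 50. The 5 fullest ends held 569 of the 2154, or 26.4%, and the 5 emptiest held 49.

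The fullest was 17q, with 181 summits in replicate 1, 188 in replicate 2 and 139 shared, or 69.5 per Mb (95% Poisson interval 58.4 to 82.1). The end of 19p followed with 185 and 208 summits and 130 shared, 65.0 per Mb (54.3 to 77.2). The intervals of these 2 ends overlap. The end of 3q had 124 and 148 summits with 102 shared, 17p had 125 and 150 with 101 shared, and 20q had 122 and 156 with 97 shared. These last 3 differed by less than their counting error, with intervals of 41.6 to 61.9, 41.1 to 61.4 and 39.3 to 59.2 per Mb.

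At the other extreme, 3p had 9 summits in replicate 1, 8 in replicate 2 and 4 shared, 2.0 per Mb (0.545 to 5.12). The ends of 9p (16 and 14 summits) and 11q (10 and 12 summits) had 7 shared each. The end of 4q had 17 and 27 summits with 15 shared, and 7q had 18 and 25 with 16 shared, as many as 18p. All of these intervals lie below those of the 5 fullest ends, the highest reaching 12.99 per Mb. Both groups of ends were picked by these counts, so the gap between them is a description.

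**Figure D2:**
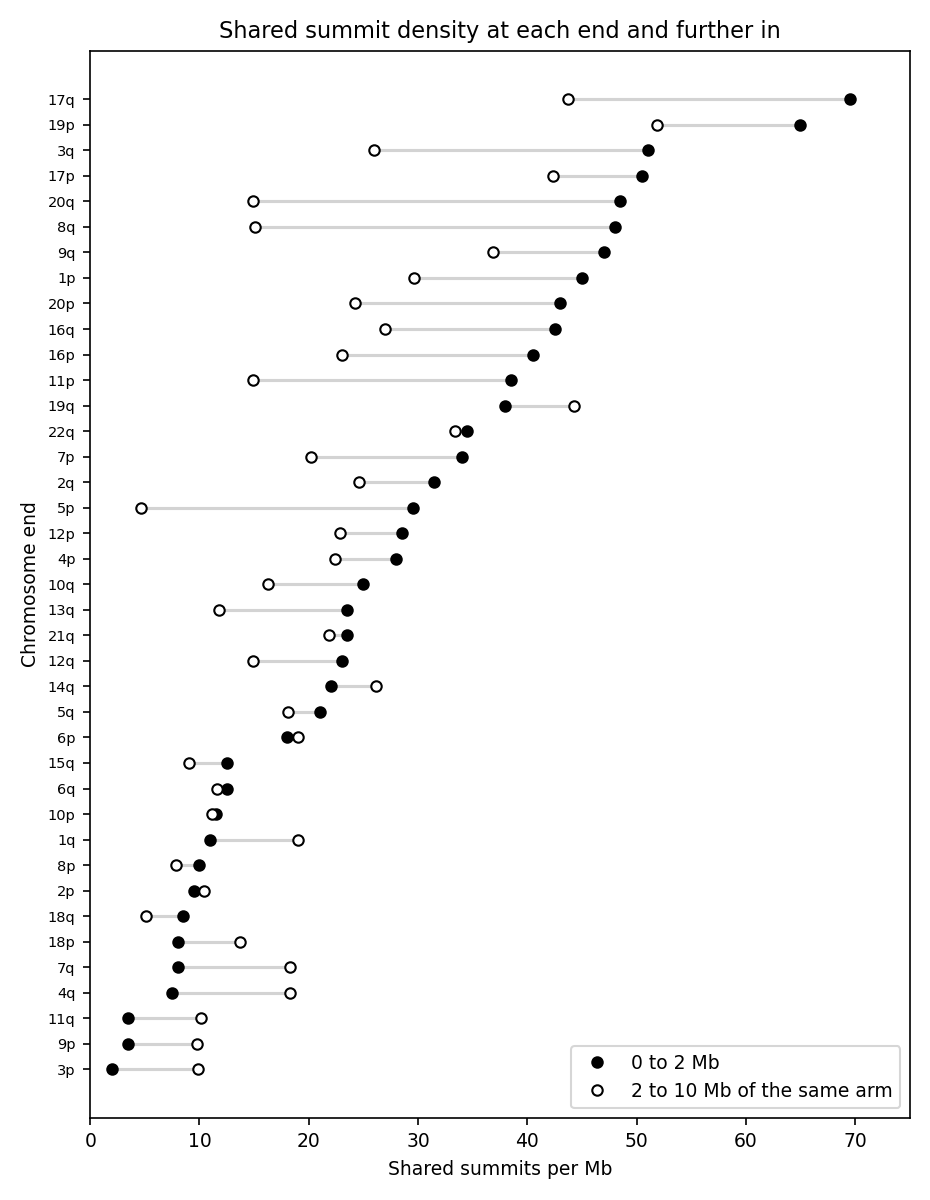
Shared summits per Mb (x axis) at each of the 39 chromosome ends (y axis), ordered by the density within 2 Mb. Filled circles are 0 to 2 Mb and open circles are 2 to 10 Mb of the same arm. The filled circle lies to the right at 28 ends, and 17q reaches 69.5 per Mb against 2.0 at 3p.

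The ratio of an end to its own arm was largest at 5p, with 29.5 shared summits per Mb near the end and 4.62 from 2 to 10 Mb, or 6.38-fold. It was 5.79 for all summits of replicate 1 and 5.40 for those of replicate 2. The ends of 20q, 8q, 11p and 13q followed at 3.26, 3.17, 2.59 and 2.0. The opposite order was found at 3p, with a ratio of 0.203, and at 11q, 9p, 4q and 7q, with 0.346, 0.359, 0.411 and 0.438. Against 2 to 4 Mb alone, 11q was denser near its end (2.33) and 19p was not (0.956, against 1.25 with 2 to 10 Mb), and the ratios of 3p and 4q were 0.667 and 0.682. The sparse ends rest on few summits. With lists cut to their 10000 highest scores, the ratios of 3p, 11q, 9p, 4q and 7q were 0.667, 0.571, 0, 0.25 and 0.727, and for all summits of replicate 1 those of 3p and 9p were 0.346 and 0.557. Across the 39 ends, the density within 2 Mb and that from 2 to 10 Mb had a Spearman correlation of 0.699, as a description of arms measured in the same 2 libraries.

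Both ends of a chromosome were then compared on the 17 chromosomes that have both. The short-arm ends had 27.4 shared summits per Mb and the long-arm ends 29.2, a ratio of 0.938, and the short-arm end was the fuller on 8 chromosomes and the long-arm end on 9 (exact sign test over chromosomes, two-sided p = 1). No difference between the arms was detected, yet the ends of single chromosomes were often far apart. On 8 of the 17 they differed at least 3-fold. Chromosome 3 had 4 shared summits at its short-arm end and 102 at its long-arm end, chromosome 9 had 7 and 94, and chromosome 11 had 77 and 7. Chromosomes 8, 7 and 1 had 20 and 96, 68 and 16, and 90 and 22. On 7 chromosomes the ends lay within 1.5-fold, closest on chromosome 16 with 81 and 85 and chromosome 18 with 16 and 17. The Spearman correlation of both ends over the 17 chromosomes was -0.03. The 0.699 for an end and its own arm was taken over all 39 ends, a different set, and the 2 values were not tested against each other. The 5 long-arm ends of acrocentric chromosomes held 25 to 69 shared summits, with a median of 47.

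**Figure D3:**
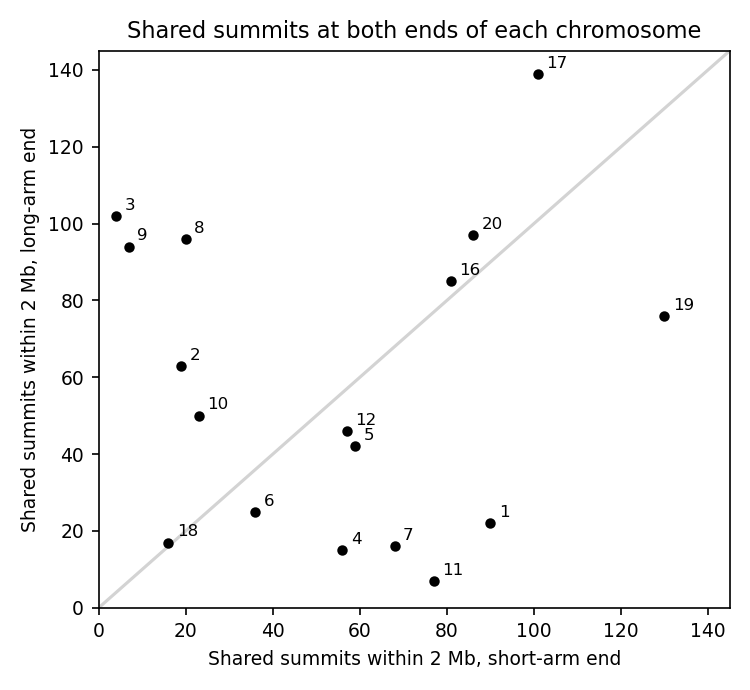
Shared summits within 2 Mb of the short-arm end (x axis) and of the long-arm end (y axis), 1 point for each of 17 chromosomes, with its number. The grey line marks equal counts. Chromosomes 3 and 9 lie far above it (4 and 102, 7 and 94) and chromosome 11 far below (77 and 7).

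Within the 2 Mb each end had its own profile. The fullest 500 kb were from 1 to 1.5 Mb at 19p, with 55 shared summits, and from 0.5 to 1 Mb at 3q, with 51. At 19p, 17p, 9q and 1p the outermost 500 kb held 4, 5, 2 and 3 shared summits although these arms were among the 8 fullest. At 20p, 19q and 22q the outer part was full instead, with 37, 32 and 27. The outermost 500 kb were the fullest of the 4 bins at 9 ends, ties included.

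No shared summit lay in the outermost 500 kb of 11q and 14q. A count of 0 allows about 3 summits, or 6.0 per Mb, there. That is a one-sided limit, lower than the upper bound of a two-sided Poisson interval as used for the other densities. On 14q the outermost shared summit was 1040 kb from the end, and the empty stretch, bases 106309072 to 107349540 in 14q32.33, held 3 summits of each library, none with a partner. That band is known for the immunoglobulin heavy chain genes. The longest stretch without a shared summit covered 1504 kb of 1q, from base 247611848 to 249115523 in 1q44, a band known for a cluster of olfactory receptor genes, with 2 summits of replicate 1 and 0 of replicate 2. The others over 900 kb lay on 9p (1244 kb), 18p (1187 kb), 7q (999 kb) and 8p (968 kb), and those on 9p and 18p were counted only up to the 2 Mb limit. Mappability was not measured, so these stretches cannot be called free of binding. Whether the genes known in 14q32.33 and 1q44 bear on them was not tested.

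**Figure D4:**
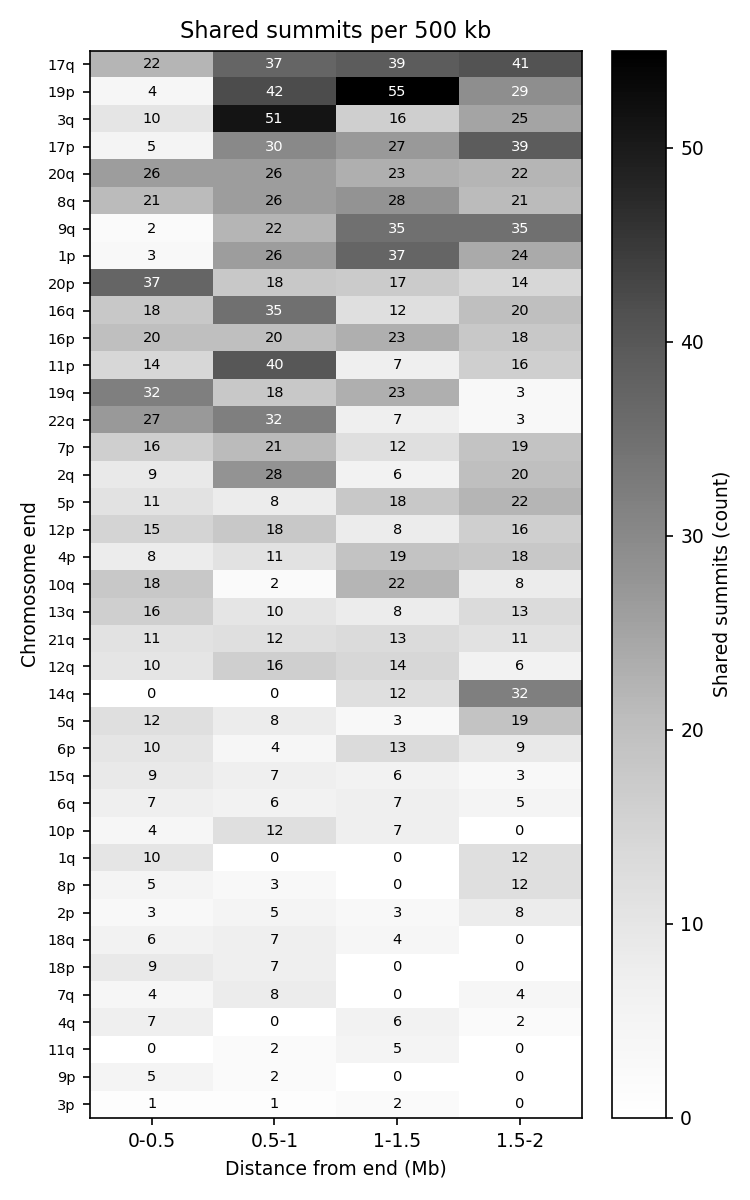
Number of shared summits (grey scale and printed count) in each 500 kb from the end (x axis, distance in Mb) for the 39 ends (y axis), ordered by their total. The fullest cells are 19p from 1 to 1.5 Mb (55) and 3q from 0.5 to 1 Mb (51), and 14q has 0 in its 2 outer cells.

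Shared summits also gathered in single windows of 100 kb counted from the ends. The fullest was 300 to 400 kb from the 20p end, bases 300001 to 400000 in 20p13, with 28 summits in replicate 1, 31 in replicate 2 and 25 shared. The second was 900 to 1000 kb from the 3q end, bases 197022431 to 197122430 in 3q29, with 26 and 27 summits and 21 shared. Next came bases 1100001 to 1200000 of 19p13.3 with 15 shared, bases 1600001 to 1700000 of 17p13.3 with 14 and bases 50904567 to 51004566 of 22q13.33 with 14. With lists cut to their 10000 highest scores these windows kept 6, 3, 5, 3 and 3 shared summits. Of the 780 windows near ends, 37 held at least 10 shared summits (4.74%), against 81 of 3120 from 2 to 10 Mb (2.60%). Windows with none made up 30.5% near ends and 41.6% further in. These shares depend on the density of each zone, so they are no result apart from it. Several summits in the same bound region count separately here.

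Agreement between the libraries did not differ detectably between ends and the stretches further in. Over all summits 76.1% of replicate 1 and 65.2% of replicate 2 had a partner. Near ends the shares were 77.2% (95% exact binomial interval 75.6 to 78.8) and 66.2% (64.6 to 67.8), and from 2 to 10 Mb they were 76.6% (75.7 to 77.5) and 65.7% (64.7 to 66.6). The share was higher near the end on 19 of 39 arms in replicate 1 and on 20 in replicate 2 (two-sided exact sign tests over ends, p = 1 in both). Paired summits lay a median of 26 bp apart near ends and 25 bp from 2 to 10 Mb, and 32 pairs near ends were on the same base. The last 100 kb stood apart in replicate 1, where 64.0% of 75 summits had a partner (52.1 to 74.8), against 79.2% (75.4 to 82.6) from 0.1 to 0.5 Mb. In replicate 2 the shares were 61.5% of 78 summits (49.8 to 72.3) and 66.7% (62.8 to 70.5), with overlapping intervals. Neither difference in the last 100 kb was tested.

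The scores of summits near ends lay close to the middle of their lists as a whole. As ranks in their own list, their median percentile was 52.5 in replicate 1 and 51.97 in replicate 2, against 51.6 and 51.7 from 2 to 10 Mb. The median was higher near the end on 18 arms and lower on 21 in each library (two-sided exact sign tests over ends, p = 0.749 in both, adjusted p = 1). The summits above the 90th percentile of each list made up 11.5% of the summits near ends in replicate 1 (10.4 to 12.8) and 11.5% in replicate 2 (10.4 to 12.6), and 10.95% and 10.87% from 2 to 10 Mb. The shared summits on either side of the 2 Mb limit were at 1999.09 kb from the 7q end, with scores of 8.55 and 17.9, and at 2000.06 kb from the 8q end, with 12.1 and 27.1.

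One end had high scores in both libraries. The 90 summits of replicate 1 within 2 Mb of the 19q end had a median score of 18.04, at percentile 81.2 of the list, and the 97 of replicate 2 had a median of 18.6, at percentile 80.7. The medians of the other 38 ends ran from 38.3 to 66.8 in replicate 1 and from 32.96 to 65.7 in replicate 2, so 19q lay above all of them in both. Further in on the same arm, from 2 to 10 Mb, the medians were at percentiles 58.2 and 58.05. Of the 76 shared summits at this end, 29 had a mean percentile above 90, or 38.2% (95% exact binomial interval 27.2 to 50.02), against 260 of 2078 (12.5%) at the other ends and 80 of 354 (22.6%) from 2 to 10 Mb of 19q. From the end inwards, the 4 bins held 11 of 32, 5 of 18, 12 of 23 and 1 of 3. The terminal band 19q13.43, of 25% stain, is known for clusters of zinc finger genes. This end was singled out after its values were seen, and the difference was not tested. Its density, 38.0 shared summits per Mb, was below the 44.2 per Mb from 2 to 10 Mb.

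**Figure D5:**
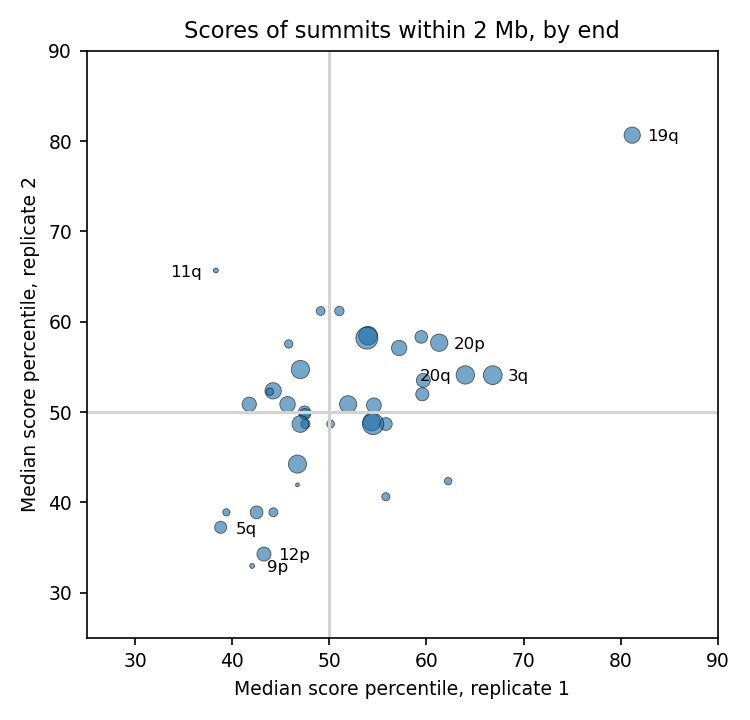
Median score percentile of all summits within 2 Mb of each end in replicate 1 (x axis) and replicate 2 (y axis). Circle area is proportional to the number of shared summits, and grey lines mark the middle of each list. The end of 19q, at 81.2 and 80.7, stands apart from the other 38.

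Averaged over both libraries, the lowest medians belonged to 9p, at percentiles 42.04 and 32.96, and to 5q, at 38.8 and 37.2. The end of 11q was at percentile 38.3 in replicate 1 and 65.7 in replicate 2, on 10 and 12 summits. Over the 39 ends the medians of both libraries had a Spearman correlation of 0.395, as a description.

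The 10 shared pairs with the highest mean score percentile are given by their base in replicate 1. The first 2 lay 566 and 567 kb from the 1p end, at bases 566206 and 567398 of 1p36.33, with scores of 270.2 and 253.2, and of 214.9 and 203.7. They were also the first 2 of the whole genome, in a stretch known as background to hold a nuclear copy of mitochondrial DNA. Whether they are binding sites was not tested.

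The third pair was on base 197463915 of 3q29 in both libraries, with scores of 92.5 and 94.7. The same end held 2 more of the 10, at base 197121672 (70.9 and 71.0), inside the dense window of 3q29, and at base 197686999 (56.2 and 73.8). The end of 20q held base 62466606 in 20q13.33 (81.9 and 83.8). Chromosome 19 gave 1 pair at each end, at base 797116 of 19p13.3 (68.3 and 63.4) and at base 59070413 of 19q13.43 (66.1 and 62.5), only 58.6 kb from the long-arm end. The remaining pairs were at base 158497729 of 7q36.3 (57.4 and 76.9), on one of the emptiest ends, and at base 1655940 of 1p36.33 (57.4 and 67.7). Summits of all 10 pairs lay at most 19 bp apart. In the whole genome they ranked between 1 and 122.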

How the data were processed

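The authors deposited, per ChIP library, 1 bp summits with a score of unstated scale, used here only as a rank within its list. The build is hg19, per the submitters' processing notes. Aligner, peak caller and threshold were not given in the sources used here, and sequencing depth is unknown, because the lists hold no read counts. The lists held 62322 and 72692 summits.

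Positions were made 1-based. Chromosome lengths came from GenomeInfoDb 1.38.1 and bands from circlize 0.4.16. Distances were counted from the ends of the hg19 sequences, unsequenced bases included. Each end was compared with its own arm by two-sided exact sign tests, ties left out, and the 7 p-values were adjusted together (Benjamini-Hochberg). Intervals, at 95%, are exact (Poisson or Clopper-Pearson) and cover only counting error, while summits that neighbour each other are not independent. The regions, lists and tests were chosen with earlier results of these data known. Named are the 10 highest pairs, the 5 fullest and 5 emptiest ends, the 5 fullest windows and ends with an empty outermost 500 kb. Others named, among them 5p, 8q, 13q, the 19q scores, single chromosomes, the empty stretches and the last 100 kb, were chosen after their values were seen. The planned gene lists were not set against the summits, because no hg19 annotation was used here. SQSTM1, CTSD, ARSA and ASPSCR1 come from those lists, and only the summits of their bands were counted. These bands were not picked by the rules above.

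Alternatives were pairing limits of 50, 200 and 500 bp, higher score thresholds, each library alone, other comparison zones, the last 100 kb left out, unstained bands only, and ends or chromosomes left out. Pairing and densities were tested on simulated lists. Python 3.11.15, NumPy 2.4.6, pandas 2.3.3, SciPy 1.17.1, statsmodels 0.14.6 and matplotlib 3.10.9 were used.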

Additional observations from a re-analysis of the deposited data

Results flagged for a closer look

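The ends of chromosome X, which entered no comparison, carried summits in both lists, more than the 3 that a count of 0 allows. Within 2 Mb of the long-arm end there were 65 summits in replicate 1, 59 in replicate 2 and 44 shared, or 22 per Mb, against 54 shared (6.75 per Mb) from 2 to 10 Mb. Within 2 Mb of the short-arm end there were 11 and 18 summits and 8 shared, or 4.0 per Mb, against 63 shared (7.88 per Mb) further in. The short-arm end is known to be a pseudoautosomal region that the Y chromosome also carries. How reads were placed was not measured at either end of X.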

How the results depend on the processing

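The ratio of ends to 2 to 10 Mb stayed above 1 under every alternative run, from 1.20 in unstained bands to 1.42 among the 10000 highest-scoring summits. The adjusted p of the exact sign test passed 0.05 with a pairing limit of 200 bp (1.34, adjusted p = 0.0236), but not at 50 or 500 bp (0.373 and 0.0534). Alternatives added after seeing the data were a zone of 4 to 10 Mb (1.35), the median ratio over ends (1.25) and each end left out in turn (1.303 to 1.367). Leaving out any 1 of the 11 ends below their arm brought the adjusted p to 0.0357, as for 19q (1.37). Dropping an end of the opposite order must lower this p, so that outcome is no support. Leaving out any 1 of the 28 denser ends raised the adjusted p to 0.0970. Among summits above the median score the adjusted p of the sign test was 0.757. Against 2 to 4 Mb, 24 ends were denser and 14 less dense (two-sided exact sign test over ends, p = 0.143). With each library alone the ratio was 1.33 in both. The differences in median score percentile changed sign in unstained bands, to -0.572 points in replicate 1 and -0.527 in replicate 2 from 0.923 and 0.309, and the cause was not tested. The ratio at 19p turned to 0.956 and that at 11q to 2.33 against 2 to 4 Mb. The other results kept their side of the threshold under the alternatives run for them. Among single ends and windows, 62 values moved by more than the spread between libraries (ends) or 1.5-fold (windows), and 71 did not. Libraries could not be paired between groups, because both belong to the same group. The sign tests paired zones by end, or ends by chromosome. The lists give no counts, so depth limits could not be set.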

Other observations

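Summits close to the ends themselves were counted without a comparison, and how much of that stretch is sequenced in hg19 was not measured. The nearest lay 9.54 kb from an end, on 17q in replicate 1. Within 20 kb of an end, replicate 1 had 9 summits on 7 ends and replicate 2 had 8 on 5 ends, and 2 were shared, at 14.1 kb from the 1p end (scores 11.98 and 7.51) and at 11.6 kb from the 5p end (12.7 and 8.21). The end of 5p alone held 3 of the summits in each library. Of the others, replicate 1 had summits at 14.3 kb on 15q and 14.5 kb on 17p. It also had them at 9.54 kb on 17q, 10.1 kb on 19q and 10.7 kb on 1q. Replicate 2 had summits at 11.3 kb on 1p, 11.4 kb on 9p, 11.5 kb on 15q and 14.4 kb on 2q. All fell in a narrow range, so like distances on different chromosomes are no result. Subtelomeric sequence that is near-identical between chromosomes is known there. Whether any of these summits lie in copies of the same sequence was not tested.

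Distances between neighbouring shared summits depend on density, so they are no result apart from the densities of the zones. The median distance to the next was 12254 bp, against 14585 bp from 2 to 10 Mb, and 10.6% of these distances were at most 1 kb, against 9.16%. Across the 2154 pairs near ends, the scores of both libraries had a Spearman correlation of 0.758, and across the 6433 pairs further in it was 0.734. Summits are not independent replicates, so both values are descriptions.

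The number of summits in replicate 2 over that in replicate 1 was 1.17 near ends, as over the whole lists. By end it ran from 0.875 on 9p to 1.59 on 4q.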
